A study of Mus musculus with 6 samples.

Results

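The genes described here encode 52 heat shock chaperones and their partners, most of which work in the cytosol, nucleus or mitochondria. They were among 21456 genes measured in adipose tissue of Ntsr2 AKO and control mice. They were chosen by gene symbol from 9 role groups, which are the HSP70 and HSP110 proteins, HSP90, small heat shock proteins (small HSPs), J proteins, cochaperones, the CCT ring, mitochondrial chaperones and the heat shock factors (HSFs). The choice was made with earlier results of these mice known, so the direction of the members as a whole is a description. The one measured value in the rule was a mean over the 6 mice of at least 10 normalized counts, which left 16157 genes to test. All 52 members passed it, and the lowest of them, Hspa1l, had a mean of 169.9, so no member lay near the limit.

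Chaperones hold unfolded proteins and help them to reach or regain their shape. HSP70 does so in an ATP-driven cycle in which a J protein delivers the client and a nucleotide exchange factor such as HSP110 releases it, and HSP90 takes over signalling proteins such as kinases and steroid receptors with the help of cochaperones. Heat, oxidants and other insults that unfold cytosolic proteins free the transcription factor HSF1, which binds repeats of the letters nGAAn, the heat shock element, in front of many of these genes. Several of these chaperones are also made without stress, and in fat HSP90 holds the glucocorticoid receptor until its hormone arrives.

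RNA-seq was performed on adipose tissue of 3 Ntsr2 AKO mice (Adipoq-cre::Ntsr2 flox/flox) and of 3 controls (Ntsr2 flox/flox), numbered 3, 4 and 5 in each group, all fed a chow diet. Both groups carry the floxed allele, and Adipoq-cre recombines it in white and brown adipocytes, so vessels, immune cells and other cells of the tissue keep the receptor gene. The tissue is labelled adipose, white adipose tissue in the study's text, and the depot, sex and age of these mice are not given in the sources used here. The study asked how the neurotensin receptor NTSR2 in white adipocytes acts on food intake. The labels number the libraries and do not say that each came from a separate mouse, so p-values measure the spread between these samples.

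The read totals recovered from the table ranged from 60405373 to 66098226 in control and from 54085088 to 56268725 in Ntsr2 AKO mice. Ntsr2 (chr12:16653382-16660227, plus strand, GRCm38) had 83.8, 64.0 and 152.5 normalized counts in control and 3.10, 8.29 and 0 in Ntsr2 AKO mice, which did not overlap (adjusted p of 0.499 in limma and 1.2e-04 in DESeq2). Adipocyte marker genes were high in every mouse, and the 10 markers had a median log2 fold change of 0.00 between the groups. Transcripts of 16 skeletal muscle genes made up 5.04% of the reads of control 5, 0.401% of Ntsr2 AKO 5 and 0.185% of Ntsr2 AKO 4, against 0.00097% to 0.00295% in the other mice. For some members the log2 fold change is also given without these 3 mice. Members without a second value may have moved as well. In whole tissue, fewer cells of a type and less RNA for each cell cannot be told apart.

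Of the 52 members, 47 (90.4%) had a lower mean log2 value in Ntsr2 AKO mice and 5 had a higher one (44 and 8 after quantile normalization), against 51% lower among all genes tested. In 30 members all Ntsr2 AKO mice were lower than all control mice, as in 8.16% of all genes. No member had all Ntsr2 AKO mice above all control mice, which 6.82% of all genes had. Members had a median log2 fold change of -0.40, and all genes of -0.01. Together the members took 1.01%, 0.984% and 0.974% of the reads of control mice and 0.747%, 0.756% and 0.642% of the reads of Ntsr2 AKO mice, so the groups did not overlap in this share either. The highest value was found in control 3, 4 or 5 for 7, 22 and 19 members, and the lowest in Ntsr2 AKO 5 for 25.

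Limma, run on log2(normalized count + 1) over all 16157 genes, gave 26 members lower in Ntsr2 AKO mice with an unadjusted p under 0.05 and 0 members higher. Among all genes it gave 5.27% lower and 3.08% higher. After Benjamini-Hochberg adjustment over all genes, 0 members passed 0.05 in limma, against 0.00619% of all genes (1 gene). In edgeR 0 members and 0 of all genes passed, and 23 members were lower with an unadjusted p under 0.05, against 792 of all 16157 genes. DESeq2 on the recovered reads, the tool named in the study's methods, gave an adjusted p to 51 of the members and called 15 of them lower and 0 higher, against 0.964% and 0.416% of all genes. The calls of this tool depended on the mice kept. Without control 5 it called 9 of the 15, where 0.454% of all genes were called lower. Without Ntsr2 AKO 4 it called 10 members including 9 of the 15, against 0.469% of all genes. The calls thus moved over all genes as well as over the members. Without the 3 mice with muscle transcripts Ntsr2 AKO 3 stands alone against 2 control mice, so calls of that fit are not given.

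**Figure D1:**
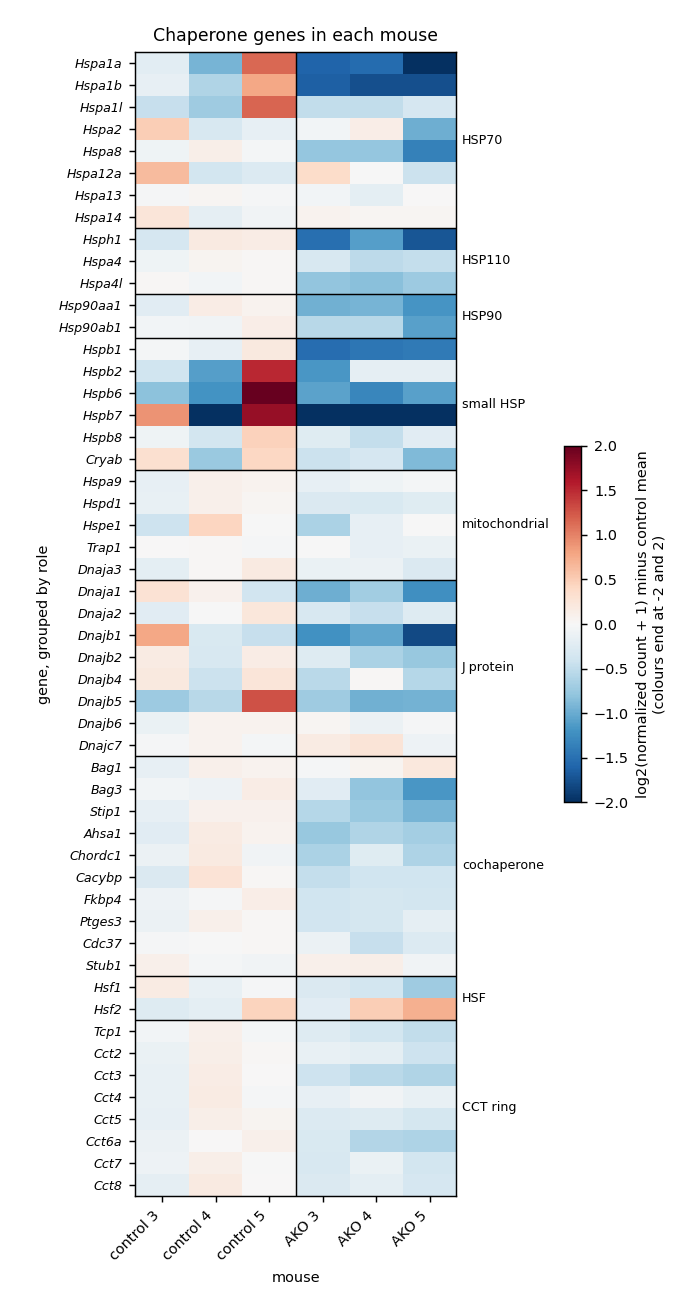
Heat map of the 52 members (rows, grouped by role) in the 6 mice (columns), with colour for log2(normalized count + 1) minus the mean of the control mice, ending at -2 and 2. The 3 columns of Ntsr2 AKO mice are mostly blue, with medians over the members of -0.33, -0.37 and -0.46, and control 5 stands out in red for Hspb6, Hspb7, Hspb2 and Dnajb5.

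The HSP70 proteins bind short hydrophobic stretches of their clients. Hspa8 (chr9:40800984-40810087, plus strand) encodes the constitutive HSC70, which also strips clathrin from vesicles and serves chaperone-mediated autophagy, and was the most abundant member. It had 123449, 141445 and 126933 normalized counts in control 3, 4 and 5 and 76251, 75962 and 51290 in Ntsr2 AKO 3, 4 and 5. The highest Ntsr2 AKO mouse was thus well below the lowest control mouse. The log2 fold change was -0.97 (standard error, SE, 0.21), a level 48.8% lower, with an adjusted p of 0.519 in limma and 0.00125 in DESeq2. Per kilobase of exon, Hspa8 had the highest mean of all members in control mice (30367) ahead of Hsp90ab1 (28114), whereas in Ntsr2 AKO mice Hspa8 (15772) stood below Hsp90ab1 (17148), with differences of about the SD between mice or less. Of the 100-base words in Hspa8 exons, 28.2% also occur in other annotated genes, chiefly Gm15459, so the placement of some of its reads is uncertain.

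Hspa1a (chr17:34969190-34972156) and Hspa1b (chr17:34956436-34959238) are neighbours on the minus strand and encode the stress-inducible HSP70, each in a single exon. Hspa1b had 1793, 1322 and 3432 normalized counts in control and 646.2, 596.0 and 593.1 in Ntsr2 AKO mice. Hspa1a had 1175, 714.9 and 3023 in control and 446.9, 466.4 and 291.5 in Ntsr2 AKO mice. In both genes the groups did not overlap, and control 5 was the highest mouse. The log2 fold change was -1.72 (SE 0.33) for Hspa1b, with an adjusted p of 0.499 in limma and 1.5e-04 in DESeq2. For Hspa1a it was -1.79 (SE 0.51), with an adjusted p of 0.522 in limma and 0.00892 in DESeq2. Without control 5 these values were -1.33 and -1.22, and without the 3 mice with muscle transcripts -1.25 and -1.03.

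Since 49.9% of the 100-base words of Hspa1b occur in Hspa1a, the split of reads between them is uncertain, and their sum is the safer value. The sum was 2968, 2037 and 6455 normalized counts in control and 1093, 1062 and 884.5 in Ntsr2 AKO mice. Control mice thus ranged over more than 3 times while Ntsr2 AKO mice stayed close together and below all of them. Hspa1b amounted to 1.45%, 0.934% and 2.70% of the count of Hspa8 in control and to 0.847%, 0.785% and 1.16% in Ntsr2 AKO mice, so this ratio of inducible to constitutive HSP70 overlapped between the groups.

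The 250 bases in front of the starts of Hspa1a (chr17:34972157-34972406) and Hspa1b (chr17:34959239-34959488), read on the minus strand from RefSeq (GRCm38.p6), are shown because the near-identity of this pair extends into the promoter. They were identical at 247 of 250 positions (98.8%). Capitals mark a pair of inverted heat shock units, GAANNTTC, whose first base lies 104 bases before the start in both.
Hspa1a: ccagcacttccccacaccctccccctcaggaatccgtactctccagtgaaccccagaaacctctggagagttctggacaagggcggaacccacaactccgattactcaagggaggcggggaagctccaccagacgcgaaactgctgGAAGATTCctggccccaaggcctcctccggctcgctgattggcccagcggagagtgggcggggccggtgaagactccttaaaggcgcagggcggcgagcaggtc
Hspa1b: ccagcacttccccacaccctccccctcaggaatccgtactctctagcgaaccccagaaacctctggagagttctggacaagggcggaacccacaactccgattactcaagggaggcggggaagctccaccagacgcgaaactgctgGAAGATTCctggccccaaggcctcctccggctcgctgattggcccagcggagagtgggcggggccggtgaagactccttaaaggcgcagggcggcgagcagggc

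The other HSP70 members showed smaller differences, and the groups overlapped in each. Hspa1l, a relative known best from the testis, had 127.9, 107.3 and 396.2 normalized counts in control and 124.9, 124.4 and 138.7 in Ntsr2 AKO mice, so its lower mean rested on control 5 (difference -0.44 on the log2 scale, and 0.14 without that mouse). It also overlaps the gene Gm10501 on the opposite strand over 1778 bases. Hspa2, needed in spermatogenesis, had a log2 fold change of -0.30, the distant relatives Hspa12a and Hspa13 of -0.03 and -0.08, and the ribosome-associated Hspa14 of 0.05. In the whole group of 8, 7 were lower (6 after quantile normalization, where Hspa12a was at 0.07), 3 of them with an unadjusted p under 0.05 in limma, and the median was -0.37. Among all genes 51% were lower, and 5.27% were lower with such a p.

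J proteins stimulate the ATPase of HSP70 and pass clients to it. Dnaja1 (chr4:40722150-40737149, plus strand), a farnesylated cytosolic member, had the highest mean of the 8 genes, with 30440, 26351 and 19121 normalized counts in control and 12596, 15384 and 10633 in Ntsr2 AKO mice. Dnajb1 (chr8:83608193-83612653, plus strand), the inducible HSP40, had 8520, 4050 and 3616 in control and 2168, 2424 and 1424 in Ntsr2 AKO mice. Both genes separated the groups, and in both control 3 was the highest mouse, unlike the inducible HSP70 genes. The log2 fold change was -0.97 (SE 0.22) for Dnaja1, with an adjusted p of 0.520 in limma and 0.00863 in DESeq2. It was -1.35 (SE 0.36) for Dnajb1, with an adjusted p of 0.522 in limma and 0.0163 in DESeq2.

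Dnaja2 was lower in every Ntsr2 AKO mouse by a smaller amount (-0.35), and Dnajb2, a ubiquitin-binding J protein, overlapped by a single pair of mice (-0.55). The unadjusted limma p was 0.0470 and 0.0264 for these genes. Dnajb5 had a log2 fold change of -0.88 that was -0.24 without control 5, which held 3978 normalized counts against 998.6 and 1126 in the other control mice. Dnajb4, Dnajb6 and Dnajc7 had values of -0.36, -0.03 and 0.11 with overlapping groups. Thus 7 of the 8 J proteins were lower (6 after quantile normalization, where Dnajb6 was at 0.09), 4 with an unadjusted p under 0.05, with a median of -0.46. The shares over all genes were 51% and 5.27%.

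The 3 HSP110 genes encode large relatives of HSP70 that act as its nucleotide exchange factors and help to dissolve aggregates, and all 3 separated the groups. Of all genes, 8.16% were lower without overlap. Hspa4l (chr3:40744495-40796103, plus strand) had 2705, 2577 and 2725 normalized counts in control and 1542, 1497 and 1617 in Ntsr2 AKO mice. Mice of the same group lay close together, within 1.06 times in control and 1.08 times in Ntsr2 AKO mice, and the groups differed by -0.78 on the log2 scale (SE 0.10). Hsph1 (chr5:149614287-149636376, minus strand) had 7726, 10981 and 10811 in control and 3408, 4509 and 2954 in Ntsr2 AKO mice, which differed by -1.45 on the log2 scale (SE 0.21). Hspa4 (chr11:53259814-53300457, minus strand) had 8313, 9210 and 8979 in control and 7032, 6107 and 6319 in Ntsr2 AKO mice, a smaller difference of -0.45 (SE 0.11). The adjusted p in limma was 0.349, 0.355 and 0.520 for these genes, and in DESeq2 it was 1.6e-08, 1.3e-06 and 0.0391. The difference in Hsph1 was thus more than 3 times that in Hspa4 on the log2 scale, without a test between the genes.

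Of the cytosolic HSP90 genes, Hsp90aa1 is the inducible and Hsp90ab1 the constitutive form. Hsp90aa1 (chr12:110690605-110702728, minus strand) had 29167, 38034 and 35907 normalized counts in control and 17621, 17946 and 15080 in Ntsr2 AKO mice. Hsp90ab1 (chr17:45567775-45573271, minus strand) had 81158, 79942 and 91845 in control and 57379, 57184 and 39717 in Ntsr2 AKO mice. Both genes were lower in every Ntsr2 AKO mouse, and Ntsr2 AKO 5 was the lowest in both. The log2 fold change was -1.02 (SE 0.15) for Hsp90aa1, with an adjusted p of 0.359 in limma and 1.0e-06 in DESeq2. For Hsp90ab1 it was -0.73 (SE 0.20), with an adjusted p of 0.522 in limma and 0.0272 in DESeq2. Hsp90aa1 amounted to 35.9%, 47.6% and 39.1% of Hsp90ab1 in control and to 30.7%, 31.4% and 38% in Ntsr2 AKO mice, and this ratio overlapped. Other annotated genes, chiefly Gm12346, share 38% of the 100-base words of Hsp90aa1, while Hsp90ab1 shares none.

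**Figure D2:**
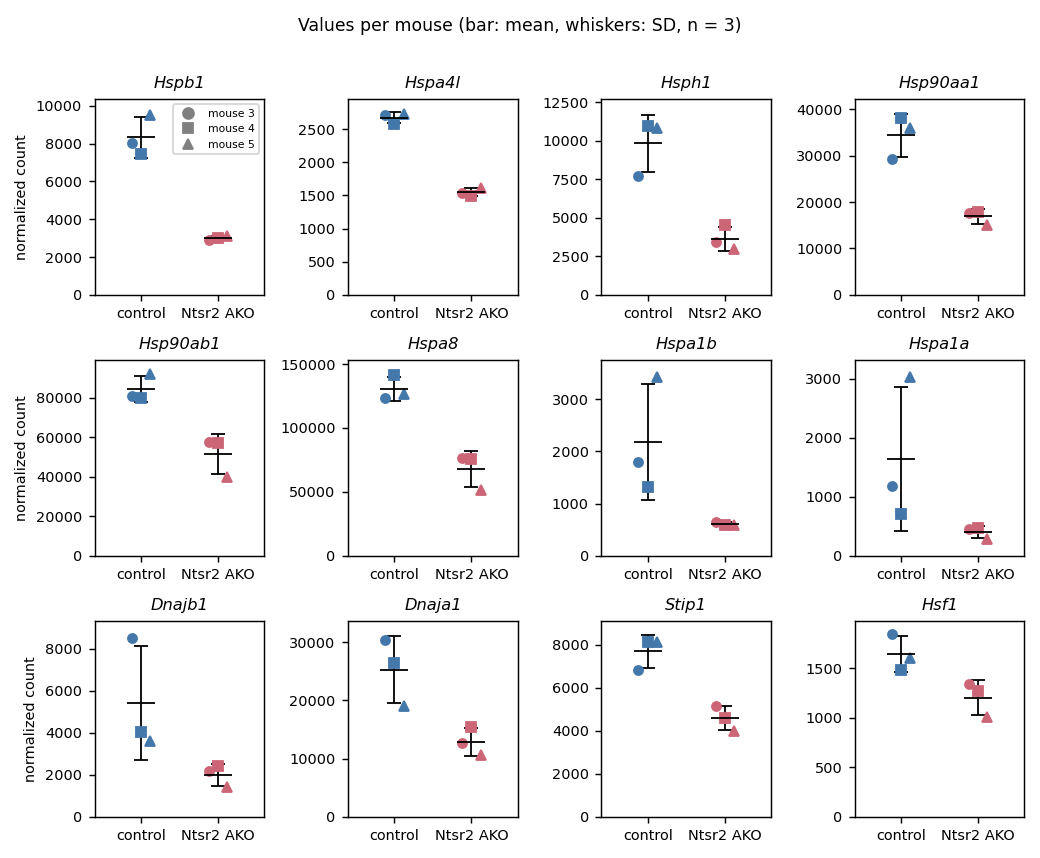
Normalized counts of 12 members in each mouse (circles, squares and triangles for mice 3, 4 and 5, blue for control and red for Ntsr2 AKO), with the mean as a bar and the SD (n = 3) as whiskers, on axes that start at 0. In all 12 panels no Ntsr2 AKO mouse reached the lowest control mouse, and the control mice spread most for Hspa1a, Hspa1b and Dnajb1.

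The 10 cochaperone genes attach clients, enzymes or timing steps to HSP70 and HSP90. Stip1 (chr19:7020702-7039967, minus strand), the adaptor Hop that bridges HSP70 and HSP90, had 6797, 8125 and 8116 normalized counts in control and 5150, 4592 and 4004 in Ntsr2 AKO mice. Ahsa1 (chr12:87266479-87273998, plus strand), the activator of the HSP90 ATPase, had 4948, 6475 and 6109 in control and 3421, 3816 and 3641 in Ntsr2 AKO mice. The groups were separate in both genes. The log2 fold change was -0.75 (SE 0.14) for Stip1 and -0.68 (SE 0.13) for Ahsa1, with an adjusted p of 0.499 for both in limma and of 0.00233 and 0.00536 in DESeq2.

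A further 6 cochaperones were lower in every Ntsr2 AKO mouse. They were Bag3, which couples HSP70 to small HSPs and autophagy (-0.73), Chordc1 (-0.50), Cacybp (-0.43), the steroid receptor partner Fkbp4 (-0.38), Ptges3, which encodes p23 (-0.31), and the kinase-loading factor Cdc37 (-0.28). The unadjusted limma p ran from 0.0107 for Fkbp4 to 0.0554 for Cdc37. Bag3 had 4906, 4716 and 5628 normalized counts in control and 4319, 2921 and 2257 in Ntsr2 AKO mice. Its difference thus lay mostly in Ntsr2 AKO 4 and 5, which held muscle transcripts. Over the alternatives its log2 fold change ran from -0.98 to -0.16. Bag1, a nucleotide exchange factor with the highest mean of the group, had 11885, 14314 and 14088 normalized counts in control and 13221, 13923 and 15497 in Ntsr2 AKO mice, and Stub1, the ubiquitin ligase CHIP, had a log2 fold change of 0.05. The groups overlapped in these 2 genes. In total 7 of the 10 cochaperones were lower with an unadjusted p under 0.05, against 5.27% of all genes, and the median was -0.40. Lower without overlap were 8.16% of all genes.

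Small HSPs form large oligomers that hold unfolded proteins without ATP. Hspb1 (chr5:135887919-135889563, plus strand), the mouse HSP25, had the smallest p of all 52 members. Its normalized counts were 8053, 7428 and 9539 in control and 2896, 3029 and 3118 in Ntsr2 AKO mice. The Ntsr2 AKO mice lay within 1.08 times of each other, and the lowest control mouse held more than 2 times the highest of them. The log2 fold change was -1.46 (SE 0.13), a level 63.7% lower, with an adjusted p of 0.0643 in limma, 0.0797 in edgeR and 4.2e-19 in DESeq2. Over the alternatives the limma value ran no further than from -1.54 to -1.35, and it was -1.42 without the 3 mice with muscle transcripts. The pseudogene Hsp25-ps1 shares 44% of the 100-base words of this gene.

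The 250 bases before the start of Hspb1 (chr5:135887669-135887918, plus strand, RefSeq, GRCm38.p6) are shown as the promoter of the leading member. Capitals mark 2 pairs of inverted heat shock units, GAANNTTC, which begin 117 and 97 bases before the start.
Hspb1: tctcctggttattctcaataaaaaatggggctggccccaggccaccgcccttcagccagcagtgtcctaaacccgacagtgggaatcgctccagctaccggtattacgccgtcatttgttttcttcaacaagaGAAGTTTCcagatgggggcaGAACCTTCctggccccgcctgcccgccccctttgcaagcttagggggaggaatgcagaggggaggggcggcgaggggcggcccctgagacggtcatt

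The groups overlapped in 4 of the other 5 small HSP genes, all but Hspb7. Hspb8, which works with Bag3 and had the highest mean, had 7336, 5993 and 10656 normalized counts in control and 6537, 5601 and 6650 in Ntsr2 AKO mice. Hspb6, abundant in muscle as HSP20, had 766.6, 590.1 and 5526 in control and 644.1, 547.3 and 636.6 in Ntsr2 AKO mice. Control 5 was the highest mouse in both genes, and without it the log2 fold change went from -0.31 to -0.09 in Hspb8 and from -1.16 to -0.15 in Hspb6. Hspb2, a partner of a muscle kinase, went from -0.51 to 0.25 in the same way, and it overlaps Cryab on the opposite strand over 252 bases. Cryab, alphaB-crystallin, had a log2 fold change of -0.55 with overlapping groups. Hspb7, known from heart and muscle, had 492.4, 41.3 and 886.4 in control and 32.0, 21.8 and 40.5 in Ntsr2 AKO mice. Its groups were separated only narrowly, with control 4 next to Ntsr2 AKO 5, and its log2 fold change of -3.07 had an SE of 1.08 (adjusted p of 0.565 in limma and 0.00120 in DESeq2). Without control 5 the difference was -2.20, without the 3 mice with muscle transcripts -2.13 and without control 4 -4.39. DESeq2 did not call Hspb7 without control 5 or without Ntsr2 AKO 4.

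The CCT ring, also called TRiC, is a double ring of 8 kinds of subunit that folds actin and tubulin. All 8 subunit genes had a lower mean in Ntsr2 AKO mice, over a narrow range from -0.52 to -0.12 with a median of -0.29. In 7 of the 8, all but Cct4, the Ntsr2 AKO mice all lay below the control mice, and 4 had an unadjusted p under 0.05 in limma (Cct3, Cct6a, Tcp1 and Cct5). The shares over all genes were 8.16% and 5.27%. Cct3 (chr3:88297116-88321767, plus strand) had 6433, 7945 and 7166 normalized counts in control and 5347, 4942 and 4700 in Ntsr2 AKO mice. Cct6a (chr5:129786998-129846371, plus strand) had 6880, 7449 and 7992 in control and 5993, 4965 and 4835 in Ntsr2 AKO mice. Tcp1, the member of the ring with the highest mean, had 11225, 12403 and 11270 in control and 9667, 9007 and 8248 in Ntsr2 AKO mice. In each of these the control mouse with the least lay above the Ntsr2 AKO mouse with the most. The adjusted p for Cct3 was 0.520 in limma and 0.0347 in DESeq2, and for Cct6a it was 0.522 and 0.0685. Without the 3 mice with muscle transcripts the log2 fold change of Cct6a was -0.26 in place of -0.50.

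Of the role groups in which every gene had a lower mean, the mitochondrial chaperones had the smallest median difference. Hspa9, the HSP70 of the matrix, had 29271, 35130 and 34640 normalized counts in control and 29416, 30937 and 32153 in Ntsr2 AKO mice, which overlapped, and the log2 fold change of -0.09 became 0.04 after quantile normalization. Hspd1, which encodes HSP60 (chr1:55077835-55088243, minus strand), had 23391, 27822 and 26678 in control and 21144, 21069 and 21818 in Ntsr2 AKO mice. It alone of the 5 had groups that did not overlap, with a log2 fold change of -0.28 and an unadjusted limma p of 0.0582. Its partner Hspe1, the HSP10 lid, overlaps it on the opposite strand over 112 bases and had a log2 fold change of -0.27 with overlapping groups. Trap1, the HSP90 of mitochondria, and the J protein gene Dnaja3 had values of -0.11 and -0.18. In limma 0 of these 5 genes had an unadjusted p under 0.05, 0 were called by DESeq2, and the median was -0.18. Among all genes 5.27% and 0.964% were lower at these limits.

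**Figure D3:**
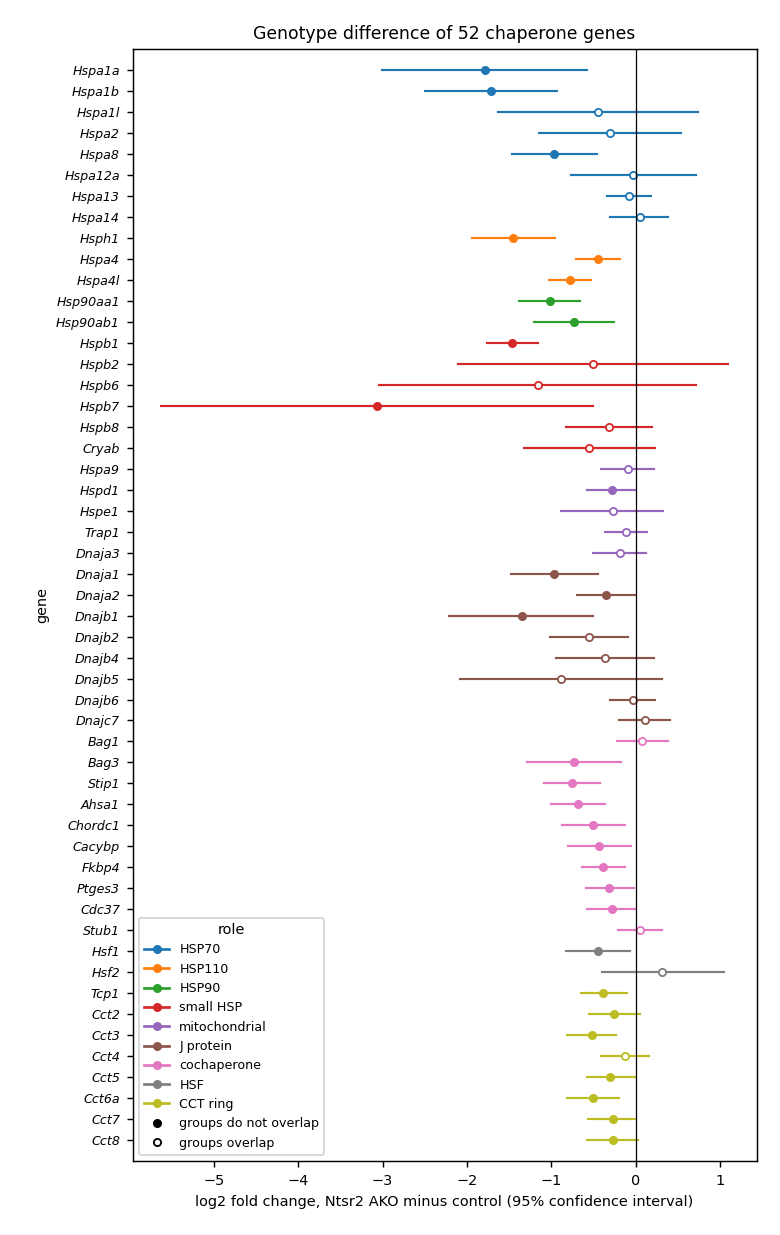
Log2 fold change of Ntsr2 AKO minus control mice (points) with the 95% confidence interval of limma (lines) for the 52 members, coloured by role. Filled points mark the 30 members whose groups did not overlap. The intervals of Hspb1, Hspa4l and Hsph1 end at -1.16, -0.53 and -0.95, and the interval of Hspb7 runs from -5.63 to -0.51.

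The heat shock factors themselves differed from each other. Hsf1 (chr15:76477422-76501913, plus strand) had 1840, 1483 and 1604 normalized counts in control and 1339, 1266 and 1004 in Ntsr2 AKO mice, with no overlap. Its log2 fold change was -0.45 (SE 0.16), with an unadjusted p of 0.0257 and an adjusted p of 0.565 in limma and an adjusted p of 0.313 in DESeq2. Hsf2, a second factor active in development, had 485.9, 507.6 and 792.4 in control and 495.5, 812.6 and 949.3 in Ntsr2 AKO mice. The groups overlapped for Hsf2, and its log2 fold change of 0.32 was -0.0034 without the 3 mice with muscle transcripts. The activity of HSF1 is set by its trimerization and phosphorylation, which RNA-seq does not measure.

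Letters of the heat shock element were searched on both strands of the RefSeq windows from 250 bases before to 50 bases after each start, which were found for 43 of the 52 members. The windows of Hspa8, Hspa13, Hsp90aa1, Hsp90ab1, Hspb2, Cryab, Hspa9, Hsf1 and Cct4 were not in the table. A pair of inverted units (GAANNTTC or TTCNNGAA) was present in 19 of the 43 members (44.2%), against 14.2% of the 11312 tested genes with a window and 15.1% of all 32851 windows. A run of at least 3 alternating units (GAANNTTCNNGAA or its reverse complement), which always contains a pair, was present in 5 members (11.6%), against 0.601% of tested genes and 0.603% of windows. Among the 22 matched members with an unadjusted p under 0.05 the pair was present in 45.5%, and among the other 21 in 42.9%. The run of 3 was present in 9.09% and 14.3%. The shares in both sets of members were thus close, and no test was made between them.

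The 30-base sites with runs of 3 or more units are shown because they mark members on both sides of that divide. Capitals mark the run. Hsph1 (chr5:149636279-149636308, minus strand) and Chordc1 (chr9:18292260-18292289, plus strand) were lower in every Ntsr2 AKO mouse, with log2 fold changes of -1.45 and -0.50. The Hspe1 site (chr1:55088053-55088082, plus strand), which holds 4 units and also lies in a window of Hspd1, and the Dnajb6 site (chr5:29735844-29735873, plus strand) belong to genes with log2 fold changes of -0.27, -0.28 and -0.03. Hspd1, on the other side of the divide, was also lower in every Ntsr2 AKO mouse, with an unadjusted limma p of 0.0582. Chordc1 holds 5 units in a row.
Hsph1 site: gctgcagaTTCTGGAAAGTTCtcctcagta
Chordc1 site: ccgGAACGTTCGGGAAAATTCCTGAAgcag
Hspe1 site: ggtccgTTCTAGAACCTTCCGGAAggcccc
Dnajb6 site: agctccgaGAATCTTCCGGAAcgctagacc

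Genes of related work that are no members were taken from 3 lists to see how far the lower levels reached. Of 29 tested genes for other cytosolic chaperones and cofactors, among them prefoldin, tubulin cofactors and further BAG and J proteins, 14 were lower and 15 higher, with a median log2 fold change of 0.03. In limma 1 of the 29 was lower and 1 higher with an unadjusted p under 0.05, near the shares of 5.27% and 3.08% among all genes. The lower gene was Hspbp1, a nucleotide exchange factor of HSP70, with 1280, 1266 and 1179 normalized counts in control and 941.4, 786.7 and 866.3 in Ntsr2 AKO mice (a difference of -0.52 on the log2 scale, adjusted p of 0.520 in limma and 0.0433 in DESeq2). The higher gene, named after its values were seen, was Bag4, a BAG protein that silences death receptors, with a log2 fold change of 0.47 and no overlap between the groups (unadjusted limma p of 0.0123). Of 14 genes for other mitochondrial chaperones and proteases, such as Lonp1 and Clpp, 4 were lower and 10 higher, with a median of 0.10, and 1 of them, the iron-sulfur J protein gene Hscb, was higher with an unadjusted p under 0.05 (0.52 on the log2 scale, with overlapping groups, and named after its values were seen). Of 7 tested genes otherwise linked to HSF1, such as Hsbp1 and Serpinh1, 6 were lower, with a median of -0.33. Unadjusted limma p-values were under 0.05 for 2 of them, Serpinh1, the collagen chaperone HSP47 (-0.67), and the autophagy receptor Sqstm1 (-0.47), which also did not overlap and were named after their values were seen. No gene of the 3 lists passed an adjusted p of 0.05 in limma. DESeq2 called 1, Hspbp1, where it called 0.964% of all genes lower and 0.416% higher.

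**Figure D4:**
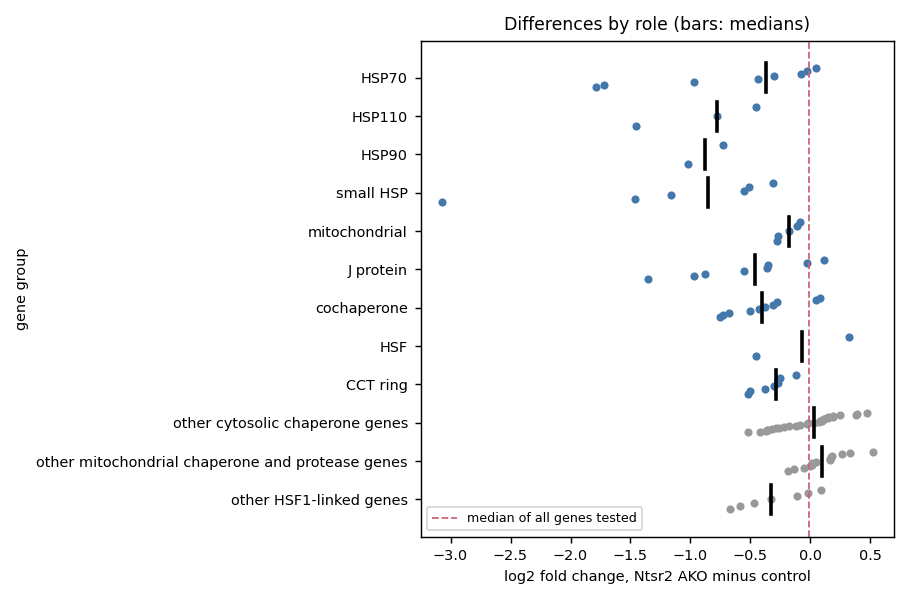
Log2 fold changes of the members by role (blue points) and of 3 lists of other genes (grey points), with the median of each as a black bar and the median of all genes tested, -0.01, as a dashed line. The medians of HSP90, small HSP and HSP110 genes lie lowest, at -0.88, -0.85 and -0.78, and those of other cytosolic and other mitochondrial genes at 0.03 and 0.10. All small HSP genes but Hspb1 and Hspb7 had overlapping groups. Without control 5 the values of Hspb6, Hspb8 and Hspb2 were -0.15, -0.09 and 0.25, so the small HSP median depends on that mouse.

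The members differed in how they varied among mice of the same group. In control mice the highest value was more than 2 times the lowest in 9 members, and in Ntsr2 AKO mice in 1. Shares over all genes were not counted for this or for the next comparison, so neither sets the members apart. For 7 members control 5 held more than 2 times the mean of control 3 and 4. These were Hspb6 (8.15 times), Hspb2 (4.68), Dnajb5 (3.75), Hspa1l (3.37), Hspb7 (3.32), Hspa1a (3.20) and Hspa1b (2.20). Skeletal muscle expresses several of these genes at a high level, and control 5 was also the mouse with the most muscle transcripts, with a sum of 3195731 normalized counts over the 16 muscle genes against 604.6 and 1134 in the other control mice. The part of muscle in these values was not tested. With the mean of the muscle genes as a covariate, 26 members were lower with an unadjusted p under 0.05 in limma, against 902 of the 16157 genes tested. The median of the members was then -0.41.

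The same comparison was possible in the mice with few muscle transcripts, 2 control mice and Ntsr2 AKO 3. There 45 of the 52 members were lower, and the median was -0.28, against -0.00 over all genes tested. Ntsr2 AKO 3 was below both control mice in 36 members (69.2%), against 27.9% of all genes tested. The spread would then come from the 2 control mice alone, so p-values of that fit are not given. The members named next were picked after their values there were seen. Hspb1, Hsph1, Hspa4l and Dnajb1 had log2 fold changes of -1.42, -1.43, -0.78 and -1.44, near those of all 6 mice. The difference was smaller for Hspa1b (-1.25 in place of -1.72) and larger for Dnaja1 (-1.17 in place of -0.97). Other members moved in both directions. The difference was smaller for Hspa8 (-0.79 in place of -0.97), Hsp90ab1 (-0.49 in place of -0.73) and Stip1 (-0.53 in place of -0.75). It was also smaller for Hspa4 (-0.32 in place of -0.45) and Hsf1 (-0.30 in place of -0.45). For Ahsa1 (-0.73 in place of -0.68) and Chordc1 (-0.67 in place of -0.50) it was larger.

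**Figure D5:**
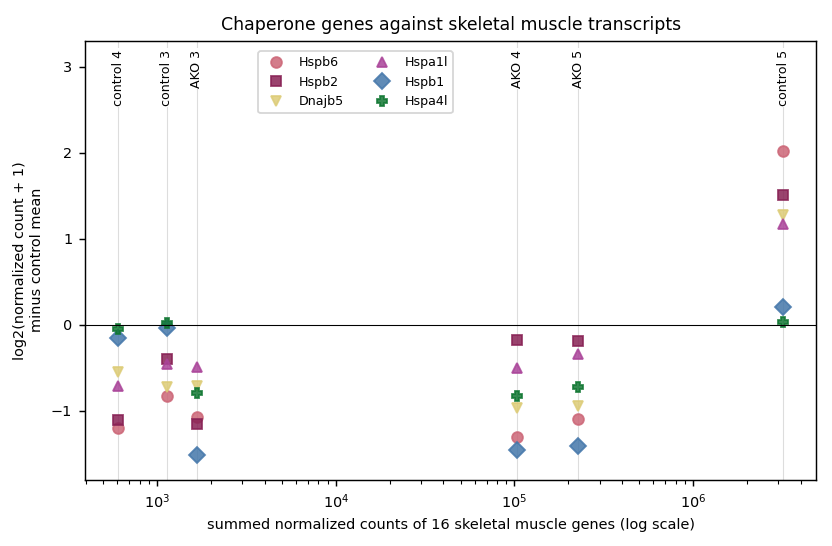
Values of 6 members in each mouse, as log2(normalized count + 1) minus the control mean, against the summed normalized counts of 16 skeletal muscle genes on a log scale. Hspb6, Hspb2, Dnajb5 and Hspa1l are high in control 5, the mouse with the most muscle transcripts, whereas Hspb1 and Hspa4l lie apart by genotype in mice with few and with many of them.

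Immediate early genes, which signalling and tissue handling induce within minutes, were also lower. Of 9 such genes, among them Fos, Egr1 and Junb, all 9 were lower in Ntsr2 AKO mice. In limma 7 had an unadjusted p under 0.05 and 1 (Egr1) had an adjusted p of 0.0442. Of all genes tested, 51% were lower, and 5.27% were lower with an unadjusted p under 0.05. Their summed normalized counts were 13910, 12066 and 19104 in control and 5971, 5291 and 6862 in Ntsr2 AKO mice, with no overlap, and their median log2 fold change was -1.79. Whether the lower chaperone levels share a source with these genes was not tested.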

How the data were processed

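Libraries of poly-A RNA from adipose tissue of 6 mice were made with a NEBNext Ultra kit. The sources used here do not say that strand was kept, so reads of genes that overlap on opposite strands cannot be told apart. The authors trimmed paired reads with Trimmomatic, aligned them with HISAT2 (mm10 in the submitters' processing notes) and quantified them with StringTie. The annotation and versions are not given in the sources used here. They deposited a signal table of normalized counts, which are read counts divided by 1 size factor for each mouse. Division by the step of the low values gave whole reads for 100% of the values in each column, within 0.01, and these approximate counts since StringTie derives them from coverage. No columns were identical, and 0 columns were left unused.

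Values were tested as log2(normalized count + 1) for genes with a mean of at least 10, with limma 3.58.1 (lmFit, eBayes with a mean-variance trend) in R 4.3.3, without covariates, over all 6 mice, adjusted over all genes after Benjamini and Hochberg with a threshold of 0.05. On the recovered reads, edgeR 4.0.16 (quasi-likelihood test after TMM scaling) and DESeq2 1.42.0 served as other tools. The fits were tested on simulated data. The members, the roles and the other gene lists were chosen with earlier results of these data known, so no test was made over them. Values in each mouse are given for the 14 members with the smallest p, the most abundant member of each role group, Hsf1, Hsf2 and the member nearest to the filter on low values. Hspa1a, Hspd1, Hspb6, Hspb7 and Bag3 were also shown by mouse, a choice made after their values were seen. Other members are named within their role group, and genes of the 3 other lists by value where p was under 0.01 or where the text says that they were named after their values were seen. A gene of these lists is not reported here, and the counts leave it out.

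Each of these choices was also replaced alone, with pseudocounts of 0.1 and 5, without a filter and with one at a mean of 50, after quantile normalization, without the trend, with a block for replicate number, with the other tools and with each mouse left out. A skeletal muscle covariate, the omission of the 3 mice with muscle transcripts, and DESeq2 with mice left out were added after seeing the data. Positions, exon lengths and shared 100-base words are from GENCODE release M21 (GRCm38), and promoter windows from RefSeq (GRCm38.p6).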

Additional observations from a re-analysis of the deposited data

How the results depend on the processing

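Of the counts over the members, the 26 with a lower level and an unadjusted p under 0.05 became 6 without the 3 mice with muscle transcripts, where 3 mice remain, and ran from 19 to 26 with each mouse left out. Members past an adjusted p of 0.05 went from 0 in limma to 15 in DESeq2. That tool called 18, 17 and 9 without control 3, 4 and 5, where 1.24%, 1.73% and 0.454% of all genes were called lower. It called 19, 10 and 10 without Ntsr2 AKO 3, 4 and 5, against 3.51%, 0.469% and 0.715% of all genes. Over all genes DESeq2 called 219 and limma 1. The median log2 fold change of the members, -0.40, was -0.31 after quantile normalization, -0.28 without the 3 mice and between -0.45 and -0.29 with each mouse left out, the last without control 5. Quantile normalization shifted the median of all genes from -0.01 to 0.05, and the members relative to it were at -0.39 and -0.36. It also turned the split of all genes with an unadjusted p under 0.05 from 852 lower and 497 higher to 612 and 633, while the split was 724 and 601 without the trend and 552 and 503 without control 5.

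The difference changed sign under at least 1 alternative in 9 of the 52 members, each with overlapping groups. After quantile normalization these were Hspa9 (0.04), Hspa12a (0.07) and Dnajb6 (0.09), and with the muscle covariate Hspa12a (0.02). With each mouse left out the values ran from -0.0019 to 0.13 for Bag1, -1.06 to 0.25 for Hspb2, -0.80 to 0.14 for Hspa1l, -0.51 to 0.04 for Hspa2, -0.22 to 0.29 for Hspa12a, -0.04 to 0.17 for Hspa14 and -0.10 to 0.0025 for Dnajb6. Without the 3 mice with muscle transcripts Hspa1l (0.09), Hspa12a (0.23), Dnajb6 (0.06) and Hsf2 (-0.0034) changed sign. The cause was not tested. With the replicate number as a block (replicate block) 24 members were lower with an unadjusted p under 0.05, against 866 of the 16157 genes tested. After adjustment 0 members and 0 of all genes passed, and the median of the members was -0.40. The sources used here do not say that the numbers pair the mice. Deviations of same-numbered mice correlated at 0.4455, -0.2416 and 0.4067, which cannot decide it with 3 mice in each group. Counting error is small for most of these genes, the least of which had a mean of 169.9 over the 6 mice, so the 3 mice in each group limit the precision. Hspb7 is an exception in single mice, with 41.3 normalized counts in control 4 and 21.8 to 40.5 in Ntsr2 AKO mice. Counting error matters for its narrow separation.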
